A study of Mus musculus with 14 samples.

Results

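The genes described here encode the nuclear subunits of the mitochondrial respiratory chain and of ATP synthase, with a few assembly factors. They were chosen by gene symbol, as every name that begins with Nduf, Uqcr, Cox4 to Cox8 or Atp5, or that is Sdha, Sdhb, Sdhc or Sdhd, without pseudogene names. A gene also had to reach an FPKM of 1 in 2 or more libraries of the 14, where FPKM is the number of sequenced fragments scaled to exon length and library size. Of 23427 genes in the deposited table, 92 had such a symbol and 85 passed the minimum. The rule used no comparison between groups. The 85 genes comprised 36 of complex I, 7 complex I assembly factors of the Ndufaf series, 4 of complex II, 8 of complex III, 13 of complex IV, 15 of ATP synthase and a pair, Atp5s and Atp5sl, that share the name but are not subunits. The 7 genes under the minimum were Cox4i2, Cox6a2, Cox6b2, Cox7b2, Cox8b, Cox8c and Ndufa4l2, all of complex IV, and Cox8b and Cox8c were listed at 0 in all 14 libraries. The subunits encoded by mitochondrial DNA were not analysed here.

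The libraries were made from primary oligodendrocyte precursor cells (OPCs) of wild-type C57BL/6J mice. By the study's methods, cortices of 3 pups at postnatal day 7 were pooled and OPCs were captured on an antibody against Pdgfra, after microglia and endothelial cells had been removed. The 7 groups held 2 libraries each. One group was taken before differentiation (Day0), and 6 at Day3 of differentiation to oligodendrocytes (OLs): non-treated, mock (transfection reagent alone), NC siRNA #1 and NC siRNA #2 (non-targeting), siSbp2l (against Secisbp2l, whose protein Sbp2l is an RNA-binding protein of the OL lineage) and siPdgfra (against the growth factor receptor that marks OPCs). The methods list 3 siRNAs against Sbp2l and do not say which entered the sequencing. They describe the replicates as independent cultures, and give 1 sequencing system for the knockdown (KD) series, which all 14 libraries belong to. The median depth was 20535113 fragments, with a low of 6561376 in NC siRNA #2 replicate 2 and a high of 31624536 in Day0 replicate 1. Secisbp2l was at 3.91 and 3.82 FPKM in siSbp2l and between 134.7 and 255.2 in the 8 Day3 control libraries, and Pdgfra was at 3.30 and 2.69 FPKM in siPdgfra and between 32.4 and 72.1 in those libraries. The summed FPKM of 9 OL markers was 731 to 812 at Day0, 6944 to 10250 in the Day3 controls, 2771 to 2969 in siSbp2l and 5199 to 5963 in siPdgfra. All 5 endothelial and all 5 fibroblast markers stayed under 1 FPKM, as did 5 of 6 microglia markers. Of 5 astrocyte markers, Gja1 and Aqp4 stayed under 1 FPKM and 3 did not, and the sum was 24.5 to 26.3 at Day0, 61.7 to 115.7 in the Day3 controls, 66.3 to 67.2 in siSbp2l and 31.1 to 31.5 in siPdgfra. Its part in the results was not tested. With 2 libraries a group, p-values measure the spread between these cultures only.

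The respiratory chain passes electrons from NADH (complex I) and succinate (complex II) through complex III and cytochrome c to oxygen at complex IV, and pumps protons across the inner mitochondrial membrane. ATP synthase uses the return of these protons to make ATP. Each complex except complex II is built from subunits of both genomes, so its assembly needs the nuclear and the mitochondrial products together. OLs build large membranes, which demands ATP and carbon precursors, and mature OLs are known to lean more on glycolysis than their precursors.

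Several factors are known to act at promoters of these genes, among them NRF1, the ETS family factor GABP (NRF2), YY1 and the oestrogen-related receptors (ERR). RefSeq promoters of GRCm38.p6, the assembly of mm10, were matched by symbol for 73 of the 85 genes and run from 250 bases before to 50 after the start. The letters GCGCANGCG (NRF1) were found on either strand in 28.8% of the 73 promoters, 8.98% of all 17733 promoters and 15.2% of the 9503 promoters of expressed genes. The values were 21.9%, 12.1% and 19.6% for CCGGAAG (ETS), 13.7%, 3.30% and 5.14% for AAGATGGC (YY1), and 11%, 3.96% and 2.59% for AAGGTCA (ERR). The last 3 letters of the ETS motif are the first 3 of the YY1 and ERR motifs, so such matches can overlap. A match describes these letters and not a bound site. The promoters of 4 genes whose mRNA is described in detail for siSbp2l, siPdgfra or NC siRNA #1 are shown, chosen after their values were seen, with matches to the 4 motifs in capitals. That of Atp5f1 (chr3:105959214-105959513, minus strand) holds 1 YY1 match, as does that of Ndufc1 (chr3:51408906-51409205, minus strand). That of Ndufa8 (chr2:36049289-36049588, minus strand) holds 2 NRF1 matches, and that of Uqcrfs1 (chr13:30545267-30545566, minus strand) holds none of the 4. The Atp5f1 promoter also holds the start of Wdr77, which is transcribed the other way.
Atp5f1: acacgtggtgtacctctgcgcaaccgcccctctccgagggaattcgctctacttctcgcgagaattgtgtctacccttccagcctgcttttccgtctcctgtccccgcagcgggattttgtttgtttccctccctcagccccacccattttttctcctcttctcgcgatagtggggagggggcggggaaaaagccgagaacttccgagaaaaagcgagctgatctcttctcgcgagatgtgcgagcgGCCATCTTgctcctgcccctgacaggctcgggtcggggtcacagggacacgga
Ndufc1: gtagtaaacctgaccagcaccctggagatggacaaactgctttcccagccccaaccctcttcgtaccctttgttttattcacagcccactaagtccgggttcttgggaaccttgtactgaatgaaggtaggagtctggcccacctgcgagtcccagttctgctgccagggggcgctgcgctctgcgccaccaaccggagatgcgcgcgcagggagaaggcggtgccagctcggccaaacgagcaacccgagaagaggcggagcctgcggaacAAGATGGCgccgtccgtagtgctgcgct
Uqcrfs1: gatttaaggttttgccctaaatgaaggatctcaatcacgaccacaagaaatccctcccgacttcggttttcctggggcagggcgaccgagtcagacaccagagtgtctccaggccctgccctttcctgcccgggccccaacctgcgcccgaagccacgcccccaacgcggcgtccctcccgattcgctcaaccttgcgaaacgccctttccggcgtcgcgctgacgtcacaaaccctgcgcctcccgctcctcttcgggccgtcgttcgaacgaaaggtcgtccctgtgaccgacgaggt
Ndufa8: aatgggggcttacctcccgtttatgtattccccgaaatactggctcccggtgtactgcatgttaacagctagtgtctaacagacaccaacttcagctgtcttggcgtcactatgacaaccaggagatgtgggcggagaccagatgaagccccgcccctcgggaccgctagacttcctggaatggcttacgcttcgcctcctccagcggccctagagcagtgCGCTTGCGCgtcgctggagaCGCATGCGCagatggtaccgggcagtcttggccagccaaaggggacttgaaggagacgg

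These genes were among the more abundant mRNAs. The median over the 85 genes of the mean FPKM of all libraries was 86.3, against 12.5 for the 11874 genes expressed under the same minimum. Of the 85, 59 were in the top 10% of expressed genes, 68 had a mean over 50 FPKM and 5 had a mean under 5. The highest means were those of Atp5b, the catalytic beta subunit of ATP synthase (519 FPKM), Cox4i1 (362), Cox6b1 (349.5), Cox6a1 (344.6) and Cox7c (333), the last 4 being nuclear subunits of complex IV. The lowest were Cox7a1 (0.408), Atp5s (2.34), Ndufaf6 (2.59), Ndufaf5 (3.46) and Atp5sl (3.98). Subunit genes of 1 complex thus differed widely, and within complex I the means ran from 13.3 (Ndufa11) to 137 FPKM (Ndufb8). The genes were short, with a median exon length of 739 bases against 2974 for expressed genes, and their median GC content was 49.8% against 49.5%. A gene on the opposite strand started within 1000 bases upstream for 25 of the 85 genes (29.4%), and for 14.7% of all expressed genes.

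Some subunits exist as alternative forms made by paralogs, often with one used in heart and skeletal muscle. Here the ubiquitous form made up nearly all of the FPKM of the set in every library, with at least 99.94% for Cox4i1 over Cox4i2, at least 99.94% for Cox6a1 over Cox6a2, at least 99.89% for Cox6b1 over Cox6b2, at least 99.86% for Ndufa4 over Ndufa4l2, and 100% for Cox8a. Cox7a1, a muscle form, made up 0.06% to 0.72% of its set, beside 50.3% to 61.9% for Cox7a2 and 38% to 49.5% for Cox7a2l. The 3 genes for the c subunit of the ATP synthase rotor encode the same mature protein. Atp5g1 gave 9.13% to 14.6% of their FPKM, Atp5g2 36.6% to 48.6% and Atp5g3 38.3% to 51.3%.

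The summed FPKM of the 85 genes was 11397 and 10846 at Day0, 11791 and 7413 in non-treated, 10207 and 10189 in mock, 8380 and 8608 in NC siRNA #1, 9610 and 9069 in NC siRNA #2, 9555 and 9124 in siSbp2l, and 11126 and 12312 in siPdgfra. This was between 2.15% and 3.21% of the FPKM of all genes. The non-treated libraries thus spanned nearly the whole range, and those of siPdgfra lay above all other Day3 libraries except non-treated replicate 1, which lay between them. In ATP synthase alone, both Day0 libraries (3929 and 3801) were above all Day3 libraries, of which the siPdgfra pair (3428 and 3633) was the highest. In bulk RNA, fewer cells of a type and less RNA per cell cannot be told apart.

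**Figure D1:**
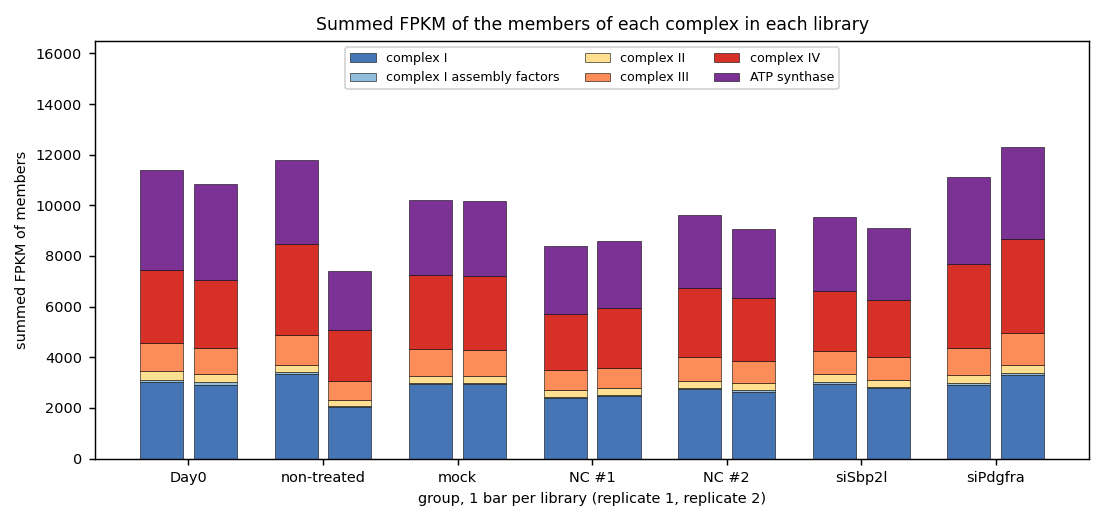
Summed FPKM of the members of each complex, 1 bar per library, in the 7 groups. The lowest bar is that of non-treated replicate 2 and the highest that of siPdgfra replicate 2, and the non-treated pair differs more than any other pair. Atp5s and Atp5sl, which are not subunits, are not drawn.

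The non-treated pair stood apart before any comparison. Replicate 2 was below replicate 1 in 78 of the 85 genes, by a median of -0.59 on the log2(FPKM + 1) scale, and 12 genes differed over 2-fold. In the other 6 groups this median lay between -0.07 and 0.10. The median over all genes in the non-treated pair was -0.09, and across genes the difference followed GC content (rho = -0.77) and exon length (rho = 0.44). A trend with GC content was also present in the Day0 pair (rho = -0.49) and the NC siRNA #1 pair (rho = 0.44). In the remaining pairs rho with GC content lay between -0.18 and 0.05. Counts of members are therefore given with and without non-treated replicate 2. For the comparisons that do not name that group, this choice was made after the data were seen. Ndufs5 is uncertain, because its locus also carries the entry BC002163 on the same strand. Ndufs5 was at 101.6 and 42.7 FPKM at Day0 while BC002163 was at 0.0074 and 64.5, and their sums were 101.6 and 107.2.

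**Figure D2:**
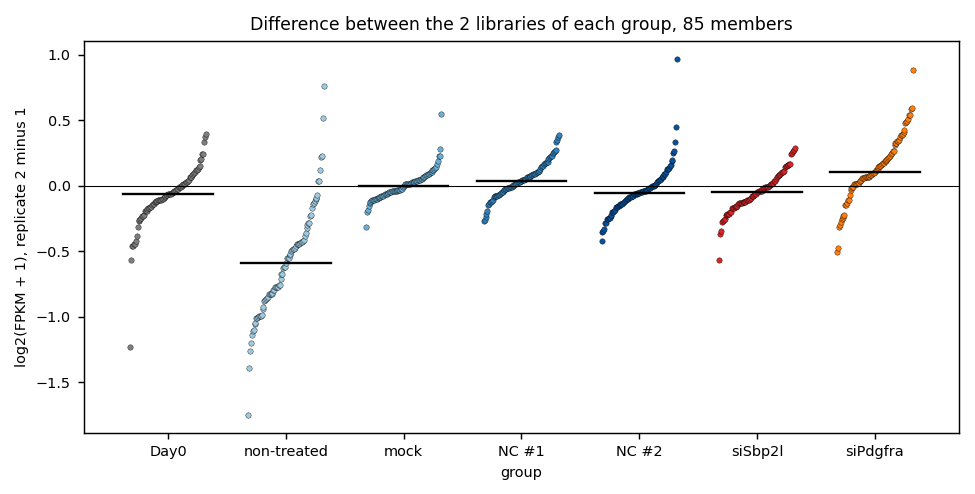
Difference between the libraries of each group (replicate 2 minus replicate 1, log2 of FPKM + 1) for each of the 85 members, sorted, with the median as a bar. The non-treated median is -0.59, and the medians of the other groups lie between -0.07 and 0.10.

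Differentiation was examined by setting Day3 cells against Day0. Falls outnumbered rises, and in mock they covered 7 of 15 ATP synthase genes and 4 of 7 complex I assembly factors. In mock against Day0, 6 members rose and 26 fell at an adjusted p under 0.05, which is 7.06% and 30.6% of 85, where 29.7% of all genes tested rose and 36.6% fell. In non-treated against Day0, 6 rose and 27 fell, where 28.4% of all genes rose and 38.6% fell. The share of members that rose was thus below that of all genes, and the share that fell was somewhat below it. The median log2 change of the members was -0.13 in mock and -0.26 in non-treated, beside -0.07 and -0.12 over all genes tested. At 2-fold or more, 0 members rose in either group and 2 fell in mock and 3 in non-treated, where 12.2% and 11.4% of all genes rose and 14% and 15.2% fell. With median-ratio scaling 10 rose and 21 fell in mock (32.7% and 33.7% of all genes), and 9 and 23 in non-treated (32.8% and 34.1% of all genes). Without non-treated replicate 2, the counts in non-treated became 27 higher and 18 lower (32.8% and 40.3% of all genes) and the median 0.05, and those in mock became 15 and 38 (34.4% and 42.4% of all genes). Among single genes of the non-treated comparison, leaving out that library gave log2 changes of -0.45 for Atp5b, -0.81 for Atp5g1, -0.78 for Atp5o, -0.58 for Ndufb11, -0.34 for Sdhd, 1.06 for Ndufa1 and 0.79 for Uqcrh, all still past the threshold. The Day3 groups share the Day0 libraries.

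By complex, the mock medians were -0.31 in ATP synthase (0 rose and 7 fell of 15), -0.76 in the assembly factors (0 rose and 4 fell of 7), 0.01 in complex I (5 rose and 8 fell of 36), -0.18 in complex II (0 and 2 of 4), -0.31 in complex III (1 and 3 of 8) and -0.02 in complex IV (0 and 2 of 13). In non-treated, 8 of 15 ATP synthase genes and 3 of 7 assembly factors fell, and complex IV had 1 fall. Of all genes tested, 29.7% rose and 36.6% fell in mock, and 28.4% and 38.6% in non-treated. Cox7b, a small subunit of complex IV on the X chromosome, fell in both groups, and was at 87.7 and 80.6 FPKM at Day0, 55.8 and 54.5 in mock and 64.5 and 43.7 in non-treated.

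Among the assembly factors, Ndufaf6 (chromosome 4, 11051046 to 11076204) was at 7.17 and 6.41 FPKM at Day0 and between 1.20 and 2.44 in the non-treated and mock libraries. The Day0 pair lay above every Day3 library. The log2 change was -1.67 (SE 0.14; limma, adjusted p = 1.4e-06) in mock and -1.29 (SE 0.14; adjusted p = 1.2e-05) in non-treated. Ndufaf4 was at 15.3 and 18.3 FPKM at Day0, 6.62 and 7.2 in mock and 8.07 and 12 in non-treated, a fall of 1.17 in mock and 0.71 in non-treated on the log2 scale. Ndufaf5, which hydroxylates the core subunit Ndufs7 early in complex I assembly, was at 5.68 and 6.90 FPKM at Day0 and 2.26 to 2.81 in both groups, with log2 changes of -0.97 and -1.04. The groups did not overlap for any of these factors. Ndufaf7 rose by 0.45 in non-treated (adjusted p = 0.0065).

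In ATP synthase, genes of the catalytic head, the rotor and the stalks fell. Atp5b had 689 and 734 FPKM at Day0, 463 and 450 in mock and 520 and 373 in non-treated, with log2 changes of -0.64 and -0.69. Atp5a1, the alpha subunit, changed by -0.64 and -0.67, and Atp5c1, the gamma subunit of the central stalk, by -0.60 and -0.44. Atp5g1 went from 93.3 and 77.7 FPKM at Day0 to 41.5 and 45.1 in mock and 48.1 and 34.7 in non-treated, a log2 change of -0.96 (SE 0.19; adjusted p = 0.00082) and -1.04 (SE 0.19; adjusted p = 0.00046). Atp5o, the stalk subunit at which oligomycin sensitivity is conferred, went from 252 and 234 FPKM to 128 and 140 in mock and 141 and 104 in non-treated. Its log2 changes were -0.86 and -0.99. The Day0 values of each of these genes lay above those of both Day3 groups.

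In complex I, Ndufa5 fell in both groups, from 110 and 142 FPKM at Day0 to 64.1 and 62.3 in mock and 76.0 and 70.1 in non-treated (log2 changes -0.97 and -0.77). Ndufb11, an X-linked subunit, went from 129 and 108 FPKM to 77.4 and 84.7 in mock and 78.8 and 44.2 in non-treated (log2 changes -0.54 and -0.99). Others moved the opposite way. Ndufa1, also X-linked, was at 55.6 and 51.2 FPKM at Day0, 92.4 and 86.4 in mock and 112 and 62.8 in non-treated, a log2 change of 0.73 (adjusted p = 0.0071) and 0.64 (adjusted p = 0.014, and 0.073 without Day0 replicate 2). Ndufs4, a subunit close to the NADH-binding module, was at 33.2 and 35.8 FPKM at Day0, 47.6 and 46.7 in mock and 54.2 and 48.2 in non-treated, and rose by 0.44 and 0.56. Ndufv3 rose by 0.69 in mock, from 83.8 and 81.0 FPKM to 136 and 132. Ndufa3 and Ndufs6 passed in mock by 0.55 and 0.51, but not without either Day0 library or either mock library, where the adjusted p was 0.058 to 0.20 for Ndufa3 and 0.074 to 0.20 for Ndufs6. Of the 7 nuclear core subunits of complex I, Ndufs3 and Ndufv2 fell in both groups. Ndufs3 fell by 0.44 in each, and Ndufv2 by 0.56 in mock and 0.58 in non-treated. Ndufs1 was higher in non-treated by 0.29. The Ndufs3 falls did not pass without Day0 replicate 1, nor without mock replicate 1 or non-treated replicate 2 in its own group. Ndufs1 did not pass without Day0 replicate 1 or non-treated replicate 2 (0.23 in each). The Ndufs1 gene overlaps Gm11602 on the opposite strand by 14704 bases, and whether strand was used in counting is not given.

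In complexes II and III, Sdhd, a membrane anchor of succinate dehydrogenase, went from 84.9 and 61.5 FPKM at Day0 to 49.2 and 51.7 in mock and 56.9 and 40.5 in non-treated (log2 changes -0.51 and -0.58). That fall did not pass without Day0 replicate 1 (-0.28 in mock and -0.35 in non-treated), and in mock not without either mock library (-0.47 and -0.55). Sdha, the catalytic subunit, changed by -0.22 in mock and did not pass when any Day0 or mock library was left out (adjusted p 0.075 to 0.20). Sdhb and Sdhc did not pass in either group. Uqcrh, the hinge protein of complex III, was higher, at 159 and 159 FPKM at Day0, 253 and 238 in mock and 276 and 180 in non-treated, with log2 changes of 0.62 (adjusted p = 0.060 without mock replicate 1) and 0.48. The latter did not pass without either Day0 library or without non-treated replicate 1, where it was 0.18 to 0.49. Along with these values, the summed FPKM of 8 genes of dividing cells went from 1088 to 1169 at Day0 to 133 to 151 in non-treated and mock, and its part in the falls was not tested.

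The siSbp2l libraries were compared with the mean of the 4 Day3 control groups to ask which members changed with this siRNA treatment. Loss of Sbp2l and other effects of the siRNA cannot be told apart here. The members changed little as a set, apart from a large fall of Cox4i1. At an adjusted p under 0.05, 5 rose and 5 fell (5.88% each), where 35.5% of all genes tested rose and 17.9% fell. Only Cox4i1 passed 2-fold, where 3.12% of all genes rose and 4.08% fell that far. The median log2 change of the members was 0.08 and that of all genes was 0.15. With median-ratio scaling, which removes that shift, 1 member rose and 14 fell, where 22.3% of all genes rose and 24.7% fell. Without non-treated replicate 2 the counts were 16 and 18 (44.9% and 23.6% of all genes), and without non-treated replicate 1 39 members rose (47.7% of all genes). In ATP synthase 0 of 15 genes passed in either direction, with log2 changes from -0.21 to 0.37. In complex II 0 of 4 passed.

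Cox4i1 (chromosome 8, plus strand, 120668290 to 120674209) encodes the main form of subunit 4 of complex IV, one of the first nuclear subunits added in its assembly. It was at 80.9 and 67.5 FPKM in siSbp2l. It was at 347 and 377 at Day0, 556 and 338 in non-treated, 456 and 455 in mock, 350 and 370 in NC siRNA #1, 406 and 375 in NC siRNA #2, and 416 and 469 in siPdgfra. All 12 other libraries were above 4 times the higher siSbp2l value. The log2 change was -2.45 (SE 0.16; limma, adjusted p = 1.4e-06), a 5.46-fold fall, and only 25 of 11650 genes had a lower value. Against the single controls it was -2.54 (non-treated), -2.61 (mock), -2.27 (NC siRNA #1) and -2.39 (NC siRNA #2), and over 23 alternatives it lay between -2.62 and -2.32. The paralog Cox4i2 was listed at 0 in both siSbp2l libraries, so Cox4i1 was 100% of the pair there too. The next gene upstream, Emc8, starts 178 bases away on the other strand. It was at 24.3 and 22.0 FPKM in siSbp2l and between 24.3 and 29.5 in the controls. Its log2 change was -0.23 (limma, adjusted p = 0.027). In siPdgfra Emc8 fell by more, with a log2 change of -0.37 (adjusted p = 0.0023), while Cox4i1 was at 0.11 (adjusted p = 0.56).

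The other subunits of complex IV did not follow Cox4i1. Of the other 12 members of that complex, Ndufa4 alone passed, at 156 and 167 FPKM against 162 to 243 in the controls, a range that overlaps. Its log2 change was -0.34 (adjusted p = 0.035), and 0.053 to 0.22 in the 9 alternatives where it was lost, among them the fits without either siSbp2l library. The nuclear subunits Cox5a, which joins the complex early together with Cox4 (139 and 155 FPKM), and Cox5b (199 and 177) were within the range of the controls (96.3 to 171 and 138 to 298). The log2 changes of these 12 genes ran from -0.34 to 0.31.

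Uqcrfs1 (chromosome 13, minus strand, 30540312 to 30545316) encodes the Rieske iron-sulphur protein, which carries electrons within complex III and is inserted late in its assembly. It was at 44.6 and 44.4 FPKM in siSbp2l, between 63.1 and 85.6 in the controls, 94.3 and 82.3 at Day0 and 92.3 and 96.4 in siPdgfra. The siSbp2l pair lay below every other library. The log2 change was -0.67 (SE 0.10; adjusted p = 0.0004), and between -0.74 and -0.60 against the single controls. Uqcrc1 (79.7 and 80.4 FPKM) and Uqcrc2 (56.5 and 54.8), of the same complex, did not pass. Cox4i1 and Uqcrfs1 were the only members lower against each of the 4 controls, where 7.94% of all genes were, and 0 members were higher against all 4, where 13.9% of all genes were.

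In complex I, Ndufs4 was at 36.3 and 35.2 FPKM in siSbp2l, below all controls (42.1 to 54.2) and close to Day0 (33.2 and 35.8). The log2 change was -0.41 (SE 0.10; adjusted p = 0.0072), and 0.053 and 0.071 were the adjusted p without siSbp2l replicate 1 and replicate 2. Ndufb11 was at 113 and 113 FPKM, above all controls (44.2 to 91.1), with a log2 change of 0.60 (adjusted p = 0.012, and 0.085 and 0.079 without either siSbp2l library). Ndufaf5 was at 3.94 and 3.58 FPKM, above the controls at 1.74 to 2.86, with a log2 change of 0.44 (adjusted p = 0.016, and 0.14 and 0.066 without either siSbp2l library). Ndufaf1, a chaperone of complex I assembly, changed by 0.21, and by 0.06 with median-ratio scaling (adjusted p = 0.58). Against single controls, Ndufb11 passed for non-treated (0.92) and NC siRNA #1 (0.58). It did not pass for mock (0.48, limma adjusted p = 0.093) or NC siRNA #2 (0.41, adjusted p = 0.14). Ndufb11 also rose in siPdgfra, by 0.48 (adjusted p = 0.030). Rbm10, which overlaps Ndufb11 on the opposite strand, rose by 0.52 in siSbp2l (adjusted p = 0.0015). The 3 further genes that passed, Ndufb8 (-0.43), Ndufa8 (0.48) and Uqcrb (0.38), overlapped the controls, and Uqcrb is named after its values were seen. Ndufa8 passed against NC siRNA #1 alone (1.41), and was at 0.19, 0.21 and 0.12 against non-treated, mock and NC siRNA #2 (adjusted p = 0.49, 0.45 and 0.68). Ndufb8 was at 99.3 and 91.4 FPKM in siSbp2l and between 93.7 (non-treated replicate 2) and 163 in the controls.

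**Figure D3:**
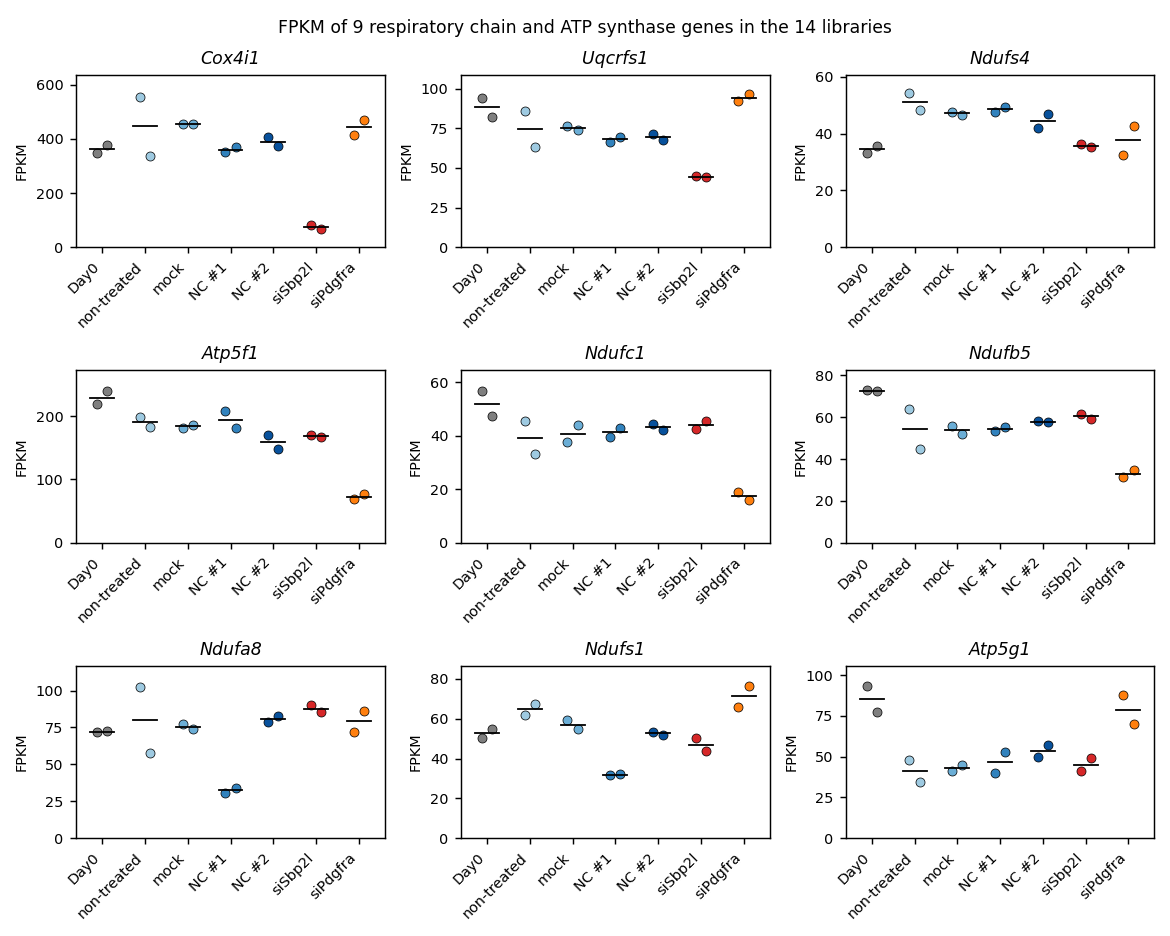
FPKM of 9 members in the 14 libraries, 1 point per library and a bar at the mean of each group of 2. Cox4i1 and Uqcrfs1 are lowest in siSbp2l, Atp5f1, Ndufc1 and Ndufb5 in siPdgfra, and Ndufa8 and Ndufs1 in NC siRNA #1.

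The siPdgfra libraries show an siRNA against another gene in the same cells. Most members had higher values there than the mean of the controls, while Atp5f1 of ATP synthase and Ndufc1 of complex I fell over 2-fold. At an adjusted p under 0.05, 32 members rose and 6 fell (37.6% and 7.06%), where 32.4% of all genes tested rose and 23.0% fell. The median log2 change was 0.33 over the members and 0.09 over all genes, and 72 of 85 members had a positive value. At 2-fold or more 0 rose and 2 fell, where 3.97% of all genes rose and 4.03% fell. With median-ratio scaling 25 rose and 7 fell (25.7% and 27.9% of all genes). Without non-treated replicate 2 the counts were 53 and 8 (40.5% and 29.1% of all genes), without non-treated replicate 1 67 rose (43.3% of all genes), without siPdgfra replicate 1 19 rose (22.4% of all genes), and without siPdgfra replicate 2 8 rose (21.3% of all genes). The medians were 0.45 in complex IV (6 rose, 0 fell), 0.42 in ATP synthase (7 and 1), 0.37 in the assembly factors (4 and 1), 0.34 in complex III (5 and 0), 0.29 in complex I (9 and 4) and 0.14 in complex II (1 and 0). Against the single controls, 25.9% (non-treated), 20% (mock), 40% (NC siRNA #1) and 18.8% (NC siRNA #2) of members rose. Of all genes, 30.7%, 24.5%, 26.9% and 24.9% rose in that order. The share of members was thus above that of all genes against NC siRNA #1 alone. Against each single control, 7 members were higher in all 4 (12.6% of all genes) and 4 were lower in all 4 (9.79% of all genes). The comparisons of both knockdowns share the control libraries.

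Atp5f1 (chromosome 3, minus strand, 105942863 to 105960248) encodes subunit b of the peripheral stalk, which holds the head of ATP synthase in place. It was at 68.8 and 76.7 FPKM in siPdgfra, 147 to 207 in the controls, 170 and 167 in siSbp2l and 219 and 240 at Day0. The siPdgfra pair lay below every other library. The log2 change was -1.31 (SE 0.09; adjusted p = 2.0e-06), between -1.41 and -1.11 against the single controls and between -1.41 and -1.21 over 23 alternatives. Its annotated 5′ part overlaps that of Wdr77 on the opposite strand by 751 bases, and the RefSeq start used for the promoter lies inside the gene as annotated in the deposited table. Wdr77 was at 17.7 and 14.6 FPKM in siPdgfra and 12.2 to 15 in the controls, a log2 change of 0.22.

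Ndufc1 (chromosome 3, minus strand, 51405479 to 51408955), a small membrane-arm subunit of complex I, was at 18.8 and 16.0 FPKM in siPdgfra, 33.0 to 45.4 in the controls and 42.7 and 45.4 in siSbp2l. The log2 change was -1.19 (SE 0.12; adjusted p = 2.4e-05), and between -1.27 and -1.11 against the single controls. Ndufb5, another membrane-arm subunit, was at 31.5 and 34.6 FPKM in siPdgfra and 45 to 63.8 in the controls, and fell by 0.72 (SE 0.11; adjusted p = 0.00045). Its head-to-head neighbour Mrpl47, 308 bases away, had a log2 change of 0.19 (adjusted p = 0.17). Ndufaf1 was at 5.35 and 6.03 FPKM against 8.48 to 9.87 in the controls, a fall of 0.60 (adjusted p = 9.4e-05). These 3 genes and Atp5f1 were the 4 members lower against every single control, and their calls held when each library was left out. Ndufa10 fell by 0.32, with 48.8 and 51.8 FPKM against 52.1 to 71.1, but not without siPdgfra replicate 1 or replicate 2 (adjusted p = 0.12 and 0.059). Ndufs4 fell by 0.35 with overlapping libraries (32.5 and 42.8 FPKM).

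The members that rose in siPdgfra were spread over the complexes. Atp5g1 was at 87.6 and 70.3 FPKM, above the controls at 34.7 to 57.0 and near Day0 (93.3 and 77.7), with a log2 change of 0.77 (SE 0.15; adjusted p = 0.0017). Atp5l, subunit g of the membrane part of ATP synthase, was at 307 and 328 FPKM against 157 to 228 in the controls, with a log2 change of 0.73 (SE 0.12; adjusted p = 0.00067). Neither pair overlapped the controls. Sdhd was at 84.6 and 76.2 FPKM against 40.5 to 62.1, a log2 change of 0.57 (adjusted p = 0.0016). Cox7b was at 75.8 and 84.9 FPKM against 43.7 to 64.5, a log2 change of 0.59 (adjusted p = 0.0023). Ndufa11 was at 20.1 and 18.1 FPKM against 7.83 to 15.2, a log2 change of 0.57 (adjusted p = 0.021, and 0.15 and 0.079 without either siPdgfra library). Atp5a1 (0.42), Atp5b (0.47), Atp5o (0.48) and Ndufaf5 (0.54), with Atp5g1, Atp5l and Cox7b, were the 7 members higher against each of the 4 controls. Atp5b did not pass without siPdgfra replicate 2 (adjusted p = 0.083). Of the nuclear core subunits of complex I, Ndufs1 (0.50), Ndufs3 (0.43) and Ndufv2 (0.23) passed. Ndufs1 was at 0.22 against mock and non-treated alone (adjusted p = 0.072), Ndufs3 did not pass without either siPdgfra library (adjusted p = 0.067 and 0.064), and Ndufv2 had an adjusted p of 0.17 with median-ratio scaling.

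**Figure D4:**
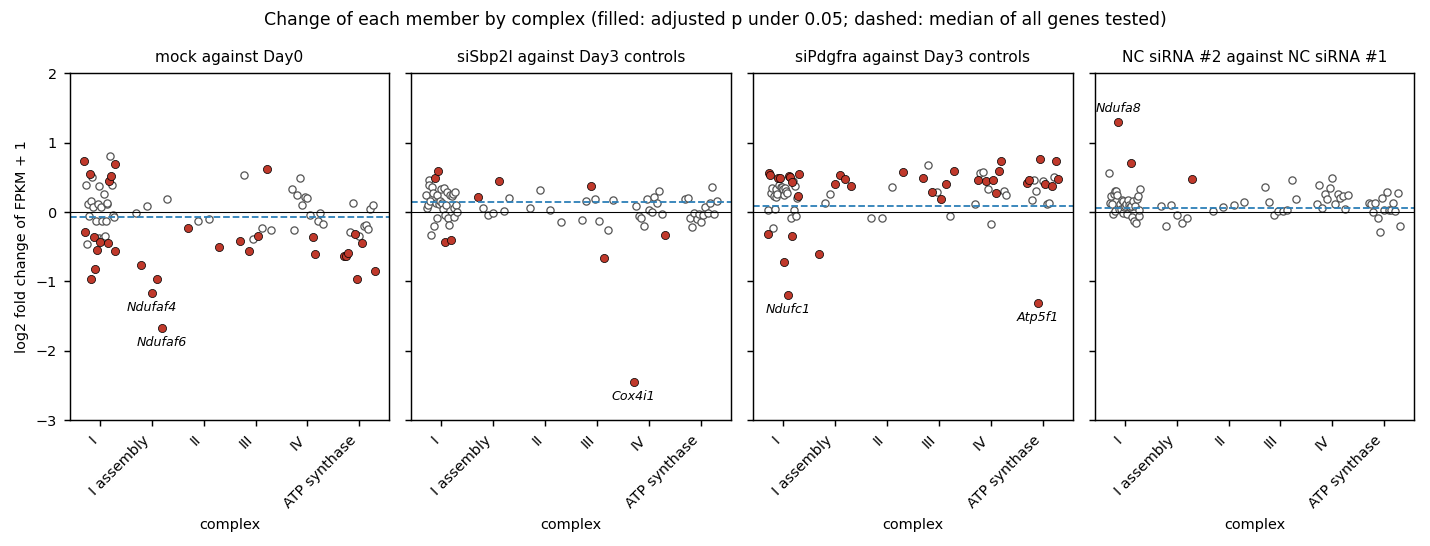
Log2 change of FPKM + 1 of each member, by complex, in mock against Day0, siSbp2l and siPdgfra against the mean of the 4 Day3 control groups, and NC siRNA #2 against NC siRNA #1. Filled points have an adjusted p under 0.05, and the dashed line is the median of all genes tested. Cox4i1 at -2.45 stands alone in siSbp2l, and in siPdgfra most points lie above 0. Atp5s and Atp5sl, which are not subunits, are not drawn.

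In the direct comparison of the knockdowns, 5 members were higher and 19 lower in siSbp2l than in siPdgfra (5.88% and 22.4%), where 28.5% of all genes tested were higher and 23.4% lower. The median log2 difference was -0.22, beside 0.06 over all genes. At 2-fold or more 2 were higher and 2 lower, where 6.94% and 6.73% of all genes were. With median-ratio scaling the counts were 5 and 28 (25.0% and 26.2% of all genes). Without non-treated replicate 2, which only enters through the shared spread, the counts were 7 and 42 (37.6% and 31.0% of all genes). Higher in siSbp2l were Ndufc1 (1.3, adjusted p = 6.7e-05), Atp5f1 (1.20, adjusted p = 1.6e-05), Ndufb5 (0.85), Ndufaf1 (0.82) and Ndufa10 (0.39). Lower were Cox4i1 (-2.56, adjusted p = 5.1e-06), Uqcrfs1 (-1.07, adjusted p = 8.8e-05), Atp5g1 (-0.80), Atp5l (-0.76) and Ndufb8 (-0.74). By complex, 5 of 13 genes of complex IV and 3 of 8 of complex III were lower, and 0 were higher in either. Of these 10, Ndufa10 was lost without any of the 4 libraries compared, Atp5g1 without replicate 1 of either group (adjusted p = 0.051 and 0.053) and Ndufb8 without replicate 2 of either group (adjusted p = 0.068 and 0.059).

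The control groups give the size of change without a specific siRNA. Mock against non-treated had 0 members past the threshold by limma, where 0.206% of all genes were higher and 0.00858% lower. At an unadjusted p under 0.05 the counts there were 0 higher and 3 lower. NC siRNA #1 had 0 members higher and 8 lower than non-treated (15.7% and 11.7% of all genes). Against mock it had 0 higher and 5 lower (10.6% and 10.2% of all genes). NC siRNA #2 had 0 higher and 1 lower than non-treated (14.6% and 8.64% of all genes). Against mock it had 0 in either direction (7.48% and 7.12% of all genes). NC siRNA #2 against NC siRNA #1 had 3 members higher and 0 lower by limma, where 10.8% of all genes were higher and 10.1% lower. At an unadjusted p under 0.05, 6 members were higher and 1 lower. At 2-fold or more Ndufa8 alone was higher, where 1.63% of all genes were higher and 2.36% lower. Without non-treated replicate 2 the counts were 18 and 2 (24.2% and 16.9% of all genes). Ndufa8, a subunit of complex I in the intermembrane space, was at 30.7 and 34.1 FPKM in NC siRNA #1, 78.7 and 82.5 in NC siRNA #2 and between 57.5 and 103 in all other libraries. The NC siRNA #1 pair lay below every other library, with a log2 difference of 1.29 (SE 0.21; adjusted p = 0.0019) between the NC siRNAs. Ndufs1, the largest core subunit of complex I, was at 31.6 and 32.3 FPKM in NC siRNA #1 and 53.4 and 52.0 in NC siRNA #2, a difference of 0.70 (SE 0.11; adjusted p = 0.0012), and it too was lowest in NC siRNA #1. Its head-to-head neighbour Eef1b2 starts 9 bases away, and was at 71.5 and 72.6 FPKM in NC siRNA #1, below all other libraries (90.6 to 224). In siSbp2l Eef1b2 rose by 0.51 (limma, adjusted p = 0.0024) while Ndufs1 changed by -0.09 (adjusted p = 0.39). In siPdgfra both rose, Eef1b2 by 0.45 and Ndufs1 by 0.50. The overlap of Ndufs1 with Gm11602 given above applies here too. Ndufaf7 differed by 0.48 and did not pass without NC siRNA #1 replicate 2 or NC siRNA #2 replicate 1 (adjusted p = 0.20 and 0.18). Over the 4 controls, the group means of 71 of the 85 genes spanned under 1.5-fold, with a median span of 1.26-fold, and those of Cox7a1, Ndufa8 and Ndufs1 spanned over 2-fold. Cox7a1 is close to the minimum, with values of 0.121 to 1.25 FPKM.

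Genes of the same pathway outside the symbol rule were read from lists of known members. Of 10 carriers and subunits, 3 rose and 1 fell in siSbp2l, and 6 rose and 1 fell in siPdgfra. Of all genes, 35.5% rose and 17.9% fell in siSbp2l, and 32.4% rose and 23.0% fell in siPdgfra. Slc25a3, the phosphate carrier that supplies ATP synthase, was at 80.2 and 75.7 FPKM in siSbp2l and 116 to 157 in the controls, a log2 change of -0.76 (adjusted p = 0.00017), and it was at 187 and 185 in siPdgfra, a change of 0.48. The siSbp2l pair lay below all other libraries. Slc25a5, an ADP/ATP carrier, was at 273 and 278 FPKM in siSbp2l against 155 to 213 in the controls (0.60), and at 690 and 647 at Day0. Etfa, which passes electrons from fatty acid oxidation to the chain, fell by 1.01 in siPdgfra (adjusted p = 6.7e-06). Cycs, cytochrome c, was at 85.4 and 81.8 FPKM at Day0 and 30.9 to 40.9 in the controls, a log2 change of -1.28 in mock.

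Of 34 tested assembly factors outside the rule, 8 rose and 3 fell in siSbp2l (all genes 35.5% and 17.9%), and 11 rose and 4 fell in siPdgfra (all genes 32.4% and 23.0%). Atpaf1, which assembles the head of ATP synthase, was at 4.09 and 3.50 FPKM in siSbp2l and 7.35 to 14.9 in the controls, where NC siRNA #2 was highest. It fell by 1.16 in siSbp2l (adjusted p = 4.2e-06) and by 0.36 in siPdgfra. Cox15, which makes haem A for complex IV, fell by 0.55 and 0.37. Both examples are falls picked outside the rule for named genes, and none of the 8 rises in siSbp2l is named. Of 10 tested regulators of mitochondrial biogenesis, 5 rose and 0 fell in siSbp2l (all genes 35.5% and 17.9%), 3 rose and 0 fell in siPdgfra (all genes 32.4% and 23.0%), and 0 rose and 7 fell in mock against Day0 (all genes 29.7% and 36.6%). Pprc1, a coactivator of NRF1, was at 16.8 and 14.3 FPKM at Day0, 3.23 to 6.54 in the controls, 8.55 and 8.82 in siSbp2l and 10.5 and 8.76 in siPdgfra. Its log2 changes were 0.72 in siSbp2l and 0.85 in siPdgfra. Of 16 genes of the citric acid cycle and pyruvate dehydrogenase, 5 rose and 1 fell in siSbp2l (all genes 35.5% and 17.9%) and 8 rose and 3 fell in siPdgfra (all genes 32.4% and 23.0%). The medians of these lists in siSbp2l were 0.15 (carriers), 0.14 (assembly factors), 0.26 (regulators) and 0.12 (citric acid cycle), beside 0.15 over all genes. Beside these results, the summed FPKM of 6 neuron markers was 222 to 248 in both knockdowns. It was 53.3 to 107 in non-treated and mock, 276 to 283 in NC siRNA #1 and 124 to 131 in NC siRNA #2. Of these 6, Stmn2 stayed under 1 FPKM in all libraries and 5 did not. The part of these markers in the results was not tested.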

How the data were processed

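The table holds FPKM per gene for 14 libraries, which the authors made with OmicSoft ArrayStudio from reads aligned to mm10 with refGene models. The aligner, the tool versions and whether strand was used in counting are not given in the sources used here. Although the deposited table is named for counts, its FPKM values are not whole. Back-calculated fragment numbers came out whole (within 0.1) for 88.7% to 92.5% of the low values of single-transcript genes, which gave the depths. The authors' own columns of fold changes, p-values and adjusted p-values for siSbp2l against each control were not used. The test was that of limma (version 3.58.1, under R version 4.3.3), applied to log2(FPKM + 1) with trend and robust moderation, for genes at 1 FPKM or more in 2 or more libraries. A fold change on this scale understates that of low genes. The 12 Day3 libraries shared one fit (11650 genes), and all 14 were fitted for Day0 (11874 genes). P-values were two-sided and Benjamini-Hochberg adjusted over all genes tested. Named were the 5 largest rises and falls per comparison with libraries that did not overlap, the paralog sets, the Sdh and core subunits, the 5 highest and lowest levels, and the genes whose controls differed most. Members and lists were chosen with earlier results of these data known. Tables were handled in Python 3.11.15 with pandas 2.3.3 and drawn with matplotlib 3.10.9, and the tests were tested on simulated data. Other scalings, pseudocounts, filters, control sets, a replicate block, removal of length and GC trends, and leaving out each library were tried.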

Additional observations from a re-analysis of the deposited data

How the results depend on the processing

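Of the results for single genes, 3420 kept their direction and side of the threshold under the alternatives, 179 lost the call, 170 gained one and 3 reversed. The genes that reversed all did so in non-treated against Day0 when 1 non-treated library was left out, with ranges of -0.35 to 0.92 for Cox6a1, -0.52 to 0.52 for Ndufs7 and -0.58 to 0.52 for Cox5b. Of the named calls, those kept under every alternative were 7 of 20 in non-treated against Day0, 9 of 19 in mock against Day0, 2 of 7 in siSbp2l, 8 of 21 in siPdgfra, 10 of 17 between the knockdowns and 2 of 3 between the NC siRNAs. The cause of the changes was not tested.

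In non-treated against Day0, members higher and lower numbered 1 and 8 when only the libraries compared were fitted, and 20 were higher with length and GC trends removed. With 1 library left out they ran from 3 to 27 and from 16 to 64. In mock against Day0, 10 were higher with median-ratio scaling, 17 with only the libraries compared and 23 with length and GC trends removed, and with 1 library left out the counts ran from 3 to 15 higher and 15 to 38 lower. In siSbp2l, the higher count was 1 with median-ratio scaling, 3 with upper-quartile scaling, 10 with length and GC trends removed, 8 against both NC siRNAs and 3 against mock and non-treated, a control set chosen after seeing the data, and ran from 0 to 39 with 1 library left out. The lower count was 14 with median-ratio scaling, 3 with no filter on low values and 18 with length and GC trends removed, and ran from 2 to 18. In siPdgfra, 16 were lower with length and GC trends removed, and with 1 library left out the counts ran from 8 to 67 higher and 4 to 8 lower. Between the knockdowns, 35 were lower with only the libraries compared, 11 were higher and 30 lower with length and GC trends removed, and the ranges were 4 to 7 higher and 10 to 42 lower. Between the NC siRNAs, 20 were higher and 2 lower with only the libraries compared, 1 was lower with median-ratio scaling and 8 with length and GC trends removed, and the ranges were 2 to 18 and 0 to 2. At 2-fold or more, the higher and lower counts were 0 and 3, 0 and 2, 0 and 1, 0 and 2, 2 and 2, and 1 and 0 in the same order. Where 1 library left a group with a single library, that library is assumed to vary like the other groups.

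The main fits did not pair samples by replicate number, and 2 libraries a group cannot show whether they were paired. The correlation of deviations ran from -0.38 to 0.47 over 21 pairs of groups and passed 0.1 in 4. It was highest for Day0 with non-treated. With a replicate block the higher and lower counts were 6 and 27, 6 and 24, 5 and 5, 30 and 6, 5 and 19, and 3 and 0, in the same order.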
